A study of Mus musculus with 12 samples.

Results

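P3E3 is a clonal fibroblast line of the mouse digit, and the cartilage that it formed in suspension under BMP2 and then BMP9 was compared with the same line grown as monolayer. The members of the comparison are the transcripts whose mean normalized count over the 3 P3E3/BMP9 cartilage libraries and the 3 P3E3 monolayer libraries was at least 10. They number 5183 of the 106518 entries in the table, belong to 5072 gene symbols and hold 99.7% of the reads counted in these 6 libraries. The last transcript inside the minimum had a mean of 10.0 and the first outside it 9.98, with 216 members between 10 and 12 and 302 entries between 8 and 10. Of the entries left out, 87377 were at 0 in all 6 libraries and 13958 lay above 0 but under the minimum.

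The series holds 12 libraries, 3 cultures each of BMP9 cartilage and monolayer for P3E3 and for a second clone, P3D8, and the comparison was made within P3E3. P3E3 is a single clone derived from lacZ+ fibroblasts of the terminal phalanx (P3) of adult mice, so that the 3 libraries of a group are separate cultures of 1 line and not separate animals. For P3E3/BMP9, passage 6 cells aggregated in suspension with 50 ng/ml BMP2 for 4 days and were then kept with 50 ng/ml BMP9 for 14 days. P3E3 monolayer cells, also at passage 6, grew on fibronectin-coated dishes with EGF and PDGF, each at 10 ng/ml, and LIF at 0.5 ng/ml, received neither BMP and were collected before confluence. Both media held 2% fetal bovine serum. The BMPs, the growth factors, the culture form and the time in culture therefore all differ between the groups, and their effects cannot be told apart. In bulk RNA, more cells of a type and more RNA of a gene per cell cannot be told apart either.

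Cartilage forms when mesenchymal cells condense and turn on Sox9, which drives the genes for type II, IX and XI collagen and for the proteoglycan aggrecan. In growth plate cartilage, chondrocytes then stop dividing, enlarge, and make Indian hedgehog, type X collagen and, later, Mmp13 and mineralization proteins, whereas joint surface chondrocytes do not take this course. BMPs bind type I and type II receptor kinases, which activate Smad1, Smad5 and Smad8, and the Id genes are their best known direct targets. Fibroblasts kept dividing by EGF and PDGF show the transcripts of the ERK kinase cascade and its feedback inhibitors.

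The 6 libraries held 7269748 to 8662298 counted reads. The 10 most counted transcripts took 9.86% to 10.4% of the reads in monolayer and 21.0% to 21.7% in cartilage, and transcripts of the mitochondrial genome took 2.00% to 2.63% and 4.01% to 7.23%. Pearson's r between libraries across the members, on the log2 scale, was 0.991 to 0.993 within monolayer, 0.985 to 0.991 within cartilage and 0.666 to 0.689 between the groups, and the first principal component, with 96.1% of the variance, separated the groups. On the second (1.61%), cartilage replicate 3 lay at -20.8 and replicates 1 and 2 at 9.05 and 11.5. The cell line entry of monolayer replicate 3 and of cartilage replicate 1 names P3D8 and not P3E3, against their titles; libraries were grouped by title, and without these 2 libraries 1121 transcripts were called higher and 648 lower in place of the 1104 and 655 given below. Genes with many transcript entries are counted low in this table: the entries of a gene summed to under 10 for 59.6% of protein-coding genes with 1 entry and for 93.6% of those with 6 or more. Low values of such genes are therefore not read as absence.

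From monolayer to cartilage, 1104 transcripts were called higher (21.3% of the 5183 tested) and 655 lower (12.6%), where the absolute log2 fold change (log2FC) reached 1.5 and the p adjusted by Benjamini-Hochberg was under 0.05 by limma on log2(normalized count + 1). By the adjusted p alone, 2093 were higher (40.4%), 1978 lower (38.2%) and 1112 passed in neither direction. The ranges of the 2 groups did not overlap for 4217 transcripts (81.4%). The count test of edgeR on the recovered whole reads called 1123 higher and 668 lower. The balance of directions rests on the scaling. Of the called transcripts, 62.8% were higher with the authors' size factors and 36.6% when libraries were scaled to their total reads (764 higher and 1321 lower), which moved the median log2FC of all members from 0.04 to -0.56. This is a shift of 0.60, so that an increase of about that size or less has no direction under total-read scaling. TMM factors and size factors from the 6 libraries alone shifted the median by only -0.09 and -0.05, and the authors' scaling is used below. A member of a gene list is counted as higher or lower by its adjusted p alone (under 0.05), to be read against 40.4% and 38.2% of all members. A transcript with a monolayer mean under 10 could pass the minimum only with a higher cartilage mean, so that the filter fixed its direction. The reverse holds for a cartilage mean under 10. Both limits apply to every list count below, also where they are not repeated. Values are normalized counts of replicates 1, 2 and 3, the monolayer first, and errors of a log2FC are standard errors.

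**Figure D1:**
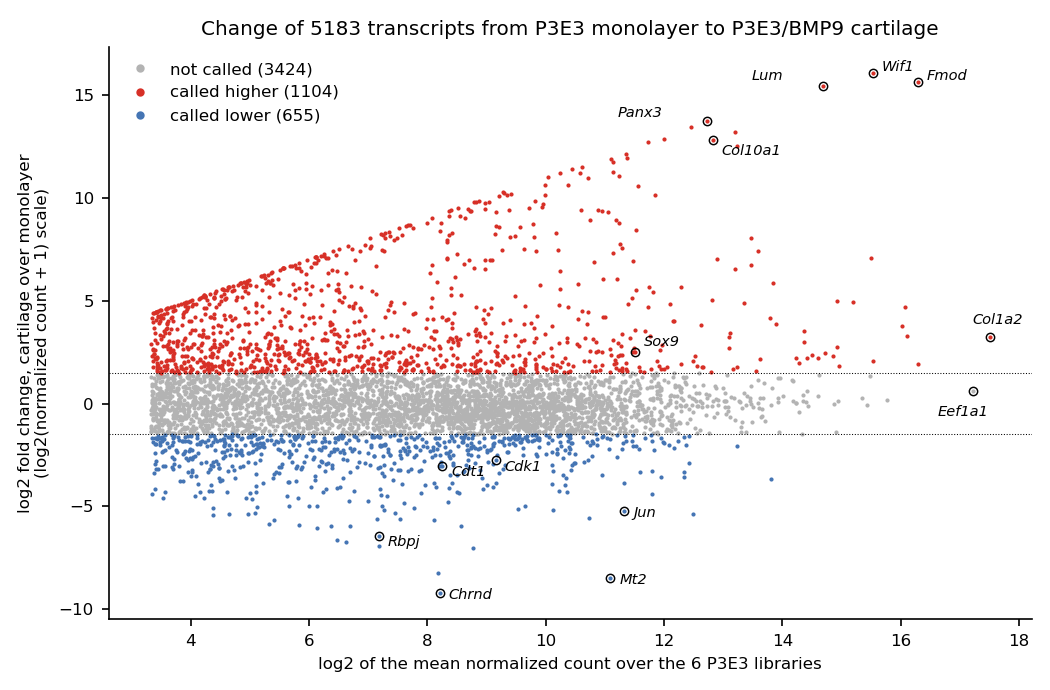
Each point is 1 of the 5183 transcripts, at its log2 mean normalized count over the 6 P3E3 libraries (x) and its log2 fold change from monolayer to cartilage (y). Red points were called higher (1104), blue points lower (655) and grey points not called, dotted lines mark a log2FC of 1.5 either way, and circled genes are named. The largest increases (Wif1 at 16.07) lie further from 0 than the largest decreases (Chrnd at -9.21).

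The increases were larger than the decreases. A log2FC of 5 or more was found for 274 transcripts and one of -5 or less for 34, and 61 transcripts had a mean of at least 1000 in cartilage and of at most 10 in monolayer while 0 had the reverse. Of the transcripts called higher, 115 were at 0 in all 3 monolayer libraries. For a gene at 0 or near it in 1 group, the fitted log2FC depends on the pseudocount, and where all 3 libraries were at 0 the fold is a lower bound against 3 reads over the group.

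Wif1 (GRCm38.p6 chr10:121034004-121100642), a secreted Wnt inhibitor made in cartilage, had the largest increase. It went from 0.604, 0.593 and 0 to 97485, 86900.3 and 97912 (log2FC 16.07 ± 0.18, adjusted p = 6.13e-12), which is 2 reads in the whole monolayer group. Fmod (chr1:134037254-134048280), encoding the collagen-binding proteoglycan fibromodulin, went from 3.02, 3.56 and 0.609 to 139929.6, 154129.6 and 185319, 66729-fold higher. It was the third most counted transcript of the cartilage. Lum, encoding the related proteoglycan lumican, went from 0.604, 0 and 0 to 41298, 47746 and 68787 (adjusted p = 2.63e-11). Panx3, a channel protein of hypertrophic chondrocytes and osteoblasts, was at 0 in monolayer and at 13866, 12779 and 13897 in cartilage, at least 22455-fold higher. The groups were far from overlapping for all 4 genes, each of which has 1 entry in the table.

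The other large increases fell on genes of varied function. Ppp1r3c, a glycogen-targeting subunit of protein phosphatase 1, went from 0 to 5889.6, 6606 and 7848. Lbp, encoding the lipopolysaccharide-binding protein, went from 0.604, 0.593 and 0 to 5355, 5372 and 5175. S100b, a calcium-binding protein of chondrocytes and glia, went from 1.21, 0 and 0 to 4023, 4929.9 and 4624. None of the 3 held more than 2 reads in the monolayer group. Kctd12, a subunit of GABA-B receptor complexes, went from 1.81, 1.78 and 3.05 to 14979, 16734 and 25649, and Fam180a from 0.604, 0 and 0 to 3942, 4982 and 4282. The remaining genes among the 15 largest increases encode matrix, Wnt and hypertrophy proteins and are described with their lists.

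The 5 tested cartilage collagens of the 7 listed were at 0 in every monolayer library and present in every cartilage library. Being at 0 in monolayer, they passed the minimum through their cartilage counts alone, so that they could only be higher. Their median log2FC was 5.88 against 0.04 over all members. Col9a2, a chain of the type IX collagen that coats type II fibrils, was counted at 4693, 2910.2 and 1747 in cartilage, at least 5179-fold higher (adjusted p = 9.91e-10). The other 4 have 3 to 13 entries each and were counted far lower. Col2a1, the type II collagen that makes up most of the fibril, was counted at 44.4, 46.3 and 94.4, at least 103-fold higher. Col11a1 was counted at 76.6, 76.1 and 66.9, Col9a1 at 31.4, 24.8 and 51.5 and Col27a1 at 37.5, 28.9 and 60.9. Replicate 3 was the lowest of the 3 cartilage libraries for Col9a2 and the highest for Col2a1, Col9a1 and Col27a1.

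The other components of cartilage matrix rose from similarly low levels. All 13 tested genes of the 24 listed were higher (median 9.37). All but Hapln4 had monolayer means under the minimum of 10, so that the filter fixed their direction. Epyc, encoding the small proteoglycan epiphycan of growth plate cartilage, went from 0 to 8882, 10524 and 14089, at least 18552-fold higher. Clec3a, a lectin of cartilage, went from 0 to 12669, 7415 and 4419, at least 13571-fold higher. Chad, encoding the cell-binding matrix protein chondroadherin, went from 0 to 2134, 1150.0 and 603. For Clec3a and Chad, as for Col9a2, replicate 1 was the highest and replicate 3 the lowest. Susd5, a protein with a hyaluronan-binding domain, went from 0, 0.593 and 0 to 5207, 5090.3 and 5469 and was even across cartilage. Scrg1, a small protein first described in prion disease, went from 0 to 1799, 2145 and 2349.9. Acan, encoding aggrecan, went from 0 to 22.2, 14.9 and 53.2 with 2 entries. Hapln4, of the link protein family, was the only tested member clearly counted in monolayer (100.2, 103 and 88.3 against 478, 489 and 516), since the others had monolayer means of 0 to 6.41. Comp, Matn1, Matn3 and Cytl1 were under the minimum, with cartilage values of 8.43, 19.8 and 13.7 for Comp and cartilage means of 8.997, 8.17 and 11.02 and monolayer means of 0, 0, 0.803 and 0.

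**Figure D2:**
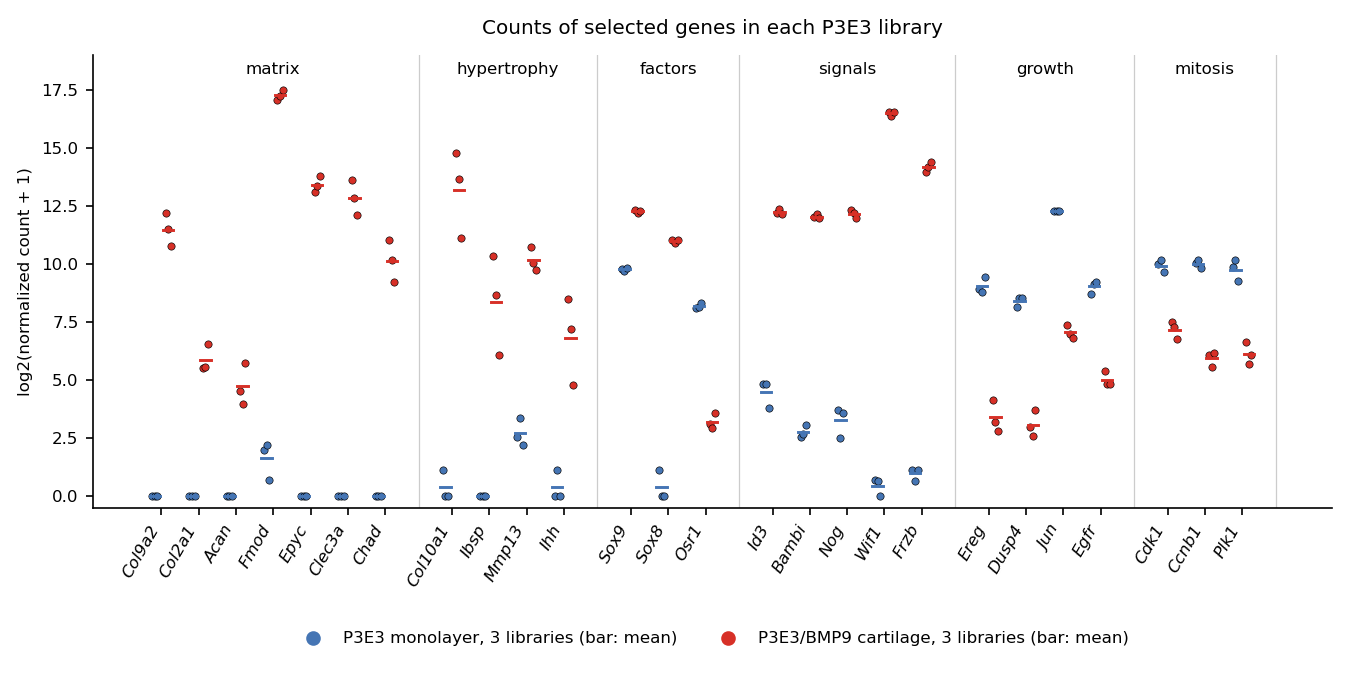
Each point is 1 library, blue for P3E3 monolayer and red for P3E3/BMP9 cartilage, at log2(normalized count + 1) for the genes named under the axis, and bars are means of 3 libraries. Matrix, hypertrophy and Wnt and BMP pathway genes start at or near 0 in monolayer, Sox9 starts at 841 to 920 counts, and Osr1, Ereg, Dusp4, Jun, Egfr and the mitosis genes are lower in cartilage with no overlap.

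Transcription factors of chondrogenesis were partly present before induction. Of 21 listed, 8 were tested, with 6 higher and 2 lower (median 1.91). Sox9 was already expressed in monolayer, at 874, 841 and 920.3, and stood at 5096, 4717 and 5072 in cartilage, 5.65-fold higher (log2FC 2.50 ± 0.08, adjusted p = 1.91e-09). Sox8, its close relative, went from 1.21, 0 and 0 to 2118, 1916 and 2085. Gli1, a transcription factor and target of hedgehog signalling, went from 0.604, 0 and 0 to 411, 311 and 273. Unlike Sox9, both were thus close to 0 in monolayer. Foxa3, a forkhead factor of hypertrophic chondrocytes, went from 0, 0.593 and 1.22 to 104, 76.1 and 40.3. Nkx3-2, a repressor that maintains immature chondrocytes, went from 174, 169.6 and 147 to 373, 441 and 422 (log2FC 1.33 ± 0.12). Foxc1, a forkhead factor of skeletal mesenchyme, went from 319.9, 293 and 403 to 759.9, 690.3 and 688 (log2FC 1.08 ± 0.12). The lower genes were Prrx1, a homeobox factor of limb mesenchyme (607, 671 and 747 against 202, 174 and 163, log2FC -1.90 ± 0.12), and Trps1, a GATA-type repressor (12.1, 31.4 and 20.7 against 6.13, 5.79 and 13.7, adjusted p = 0.0198). Sox6, with 31 entries, was under the minimum at a cartilage mean of 6.82 for its most counted entry.

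Hypertrophic chondrocyte genes were among the largest increases. Of 38 genes of hypertrophy and mineralization, 15 were tested, with 14 higher and 1 lower (median 6.45). Most of the higher genes had monolayer means under 10 and could only be higher. Among them are Col10a1, Mmp13, Ihh, Ibsp, Bglap, Bglap2 and Panx3, and also Phospho1, Runx2, Pthlh, Dlx3 and Phex, given below. Col10a1 (chr10:34389981-34397085), the collagen that marks hypertrophic chondrocytes, went from 1.21, 0 and 0 to 28246, 12873 and 2233 (log2FC 12.81 ± 0.76, adjusted p = 1.97e-07). Mmp13, the collagenase of late hypertrophy, went from 4.83, 9.49 and 3.65 to 1709, 1067 and 871, 203-fold higher. Ihh, encoding the hedgehog signal of prehypertrophic cells, went from 0, 1.19 and 0 to 359, 145 and 26.6. The groups did not overlap for these genes, but the 3 cartilage libraries of Col10a1 and Ihh lay over 10-fold apart. Ibsp, encoding the mineral-binding bone sialoprotein, went from 0 to 1303, 412 and 66.9 and was as uneven. Bglap, encoding osteocalcin, went from 0, 0 and 0.609 to 738, 898 and 821, and its paralog Bglap2 from 0, 0 and 0.609 to 567, 657 and 750.1, with no order like that of Ibsp. Their sequences are nearly identical, so that reads may have been split between them.

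Smaller increases were found for other genes of the hypertrophy list, though not for the homeobox factor Dlx3, which is described at the end. Phospho1, a phosphatase of matrix vesicles, went from 1.21, 1.78 and 1.22 to 50.6, 38.9 and 48.1. Runx2, the transcription factor that drives hypertrophy, has 20 entries, of which the most counted went from 8.45, 4.74 and 9.14 to 21.4, 28.9 and 23.2. Pthlh, encoding the PTHrP signal that delays hypertrophy, went from 7.85, 7.11 and 6.70 to 27.6, 20.7 and 19.7 (log2FC 1.51 ± 0.25). The single lower gene of the list was Slc20a1, a phosphate transporter (41.04, 61.7 and 60.3 against 19.9, 20.7 and 23.2, log2FC -1.29 ± 0.22).

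Some genes of late chondrocytes differed widely among the cartilage cultures. The median range among the 3 cartilage libraries was 0.31 on the log2 scale and that among the monolayer libraries 0.32. Of 3644 members with a mean of at least 50, 16 had a range of at least 2 in cartilage and 6 in monolayer. Of the 16, 12 were called lower (Mt2 and Rbpj among them, at low cartilage counts), 3 called higher and 1 not called, and replicate 3 was the lowest in 6 and the highest in 6. Among the genes called higher, Ibsp, Ihh, Col10a1 and Chad led by range, and in all 4 replicate 1 was the highest and replicate 3 the lowest. Col10a1 was thus counted at 28246 in cartilage replicate 1 and at 2233 in replicate 3. Bmp6, a BMP ligand of hypertrophic cartilage, had the same order (0.604, 1.19 and 1.83 against 132, 66.97 and 19.7). Panx3, Bglap, Sox9 and Wif1 did not follow it. The median log2FC of the hypertrophic list was 7.46 without cartilage replicate 3 and 5.61 without replicate 1.

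Noncoding RNAs and a few enzymes also varied among the cartilage cultures. Malat1, an abundant nuclear RNA, went from 633, 797 and 870.4 to 6041, 6562 and 2074. Firre, an RNA of nuclear organization, went from 13.3, 18.4 and 21.3 to 512, 586 and 185, and Kcnq1ot1, an imprinting RNA, from 12.1, 8.89 and 17.7 to 109.5, 176 and 51.5. Replicate 3 was the lowest cartilage library for all 3, and it also held the smallest share of mitochondrial reads of the cartilage libraries (4.01%, against 5.95% and 7.23%). The part of RNA quality in these ranges was not tested. Plagl1, an imprinted zinc finger factor, went from 1.81, 1.19 and 0.609 to 340.1, 142 and 106, with replicate 1 the highest. Xylt1, the enzyme that starts glycosaminoglycan chains, went from 5.43, 7.11 and 14.6 to 659.5, 551 and 1762, and the aminopeptidase Anpep from 0 to 79.7, 103 and 244. In both, replicate 3 was the highest.

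**Figure D3:**
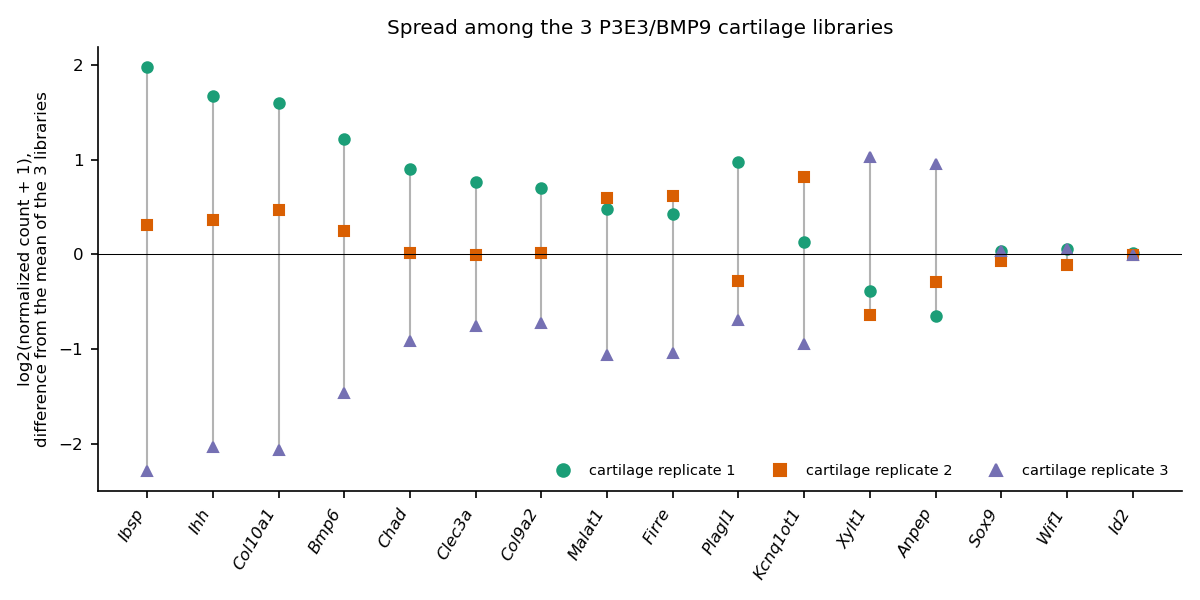
For each gene, the 3 P3E3/BMP9 cartilage libraries are shown as differences of log2(normalized count + 1) from their mean, with a marker per replicate. Ibsp, Ihh, Col10a1, Bmp6, Chad, Clec3a and Col9a2 run from replicate 1 at the top to replicate 3 at the bottom, Xylt1 and Anpep are highest in replicate 3, and Sox9, Wif1 and Id2 hardly vary.

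Markers of the joint surface split. Of 21 articular and joint genes, 8 were tested, with 5 higher and 3 lower (median 2.28, and 1.11 without cartilage replicate 1, which left 1 gene under the minimum). Dpt, Enpp2 and Sfrp2 had monolayer means under 10 and could only be higher. Osr1 and Creb5 had cartilage means under 10 and could only be lower. Osr1, a zinc finger factor of joint and connective tissue progenitors, went from 279, 285 and 317 to 7.66, 6.61 and 11.2, 34.6-fold lower (log2FC -4.98 ± 0.21, adjusted p = 2.03e-08). Creb5, a factor that in bovine cartilage drives lubricin expression, went from 64.6, 50.99 and 90.8 to 1.53, 0.827 and 0.858 (log2FC -5.05 ± 0.30). Gdf5, the ligand that marks joint interzones, went from 28.97, 38.5 and 29.2 to 18.4, 4.13 and 8.58 (log2FC -1.74 ± 0.43). These 3 lower genes are developmental regulators, and the groups did not overlap for any of them. Dpt, encoding the matrix protein dermatopontin, went from 0.604, 0 and 0.609 to 261, 349.7 and 427. Enpp2, encoding autotaxin, went from 1.21, 0.593 and 3.65 to 119, 126 and 149. Tnfrsf11b, encoding the RANKL decoy osteoprotegerin, went from 41.6, 55.7 and 35.9 to 434, 452 and 681 (11.8-fold higher). The higher genes thus mostly encode secreted proteins. Prg4, encoding lubricin, was at 0 in all 6 libraries and has 5 entries, so that its level cannot be read here.

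Several BMP targets rose, Id2 and Id3 among them. Of 26 BMP targets and intracellular feedback genes, 11 were tested, with 7 higher and 2 lower (median 2.32). Bambi, Hey1, Id4 and Hes1 of the higher genes had monolayer means under 10, so that the minimum fixed their direction. Without cartilage replicate 3 and under total-read scaling, Hes1 fell under the minimum, and the median of the 10 left was 4.30 and 3.79. Id2, an inhibitor of bHLH factors, went from 26.6, 32.6 and 28.6 to 3597, 3560.0 and 3561, 122-fold higher (log2FC 6.89 ± 0.11, adjusted p = 3.24e-11). Id3 went from 27.8, 27.3 and 12.8 to 4741, 5249.9 and 4627, 216-fold higher. Bambi, a decoy receptor that BMPs induce, went from 4.83, 5.34 and 7.31 to 4178, 4531 and 4029.6, 729-fold higher. The groups were far from overlapping for all 3. Hey1, a repressor induced by Notch and BMPs, went from 3.02, 4.15 and 4.26 to 587, 566 and 778, and Id4 from 1.21, 0.593 and 0.609 to 226, 155 and 118. Smad7, an inhibitory Smad, went from 33.8, 26.7 and 46.3 to 137, 123 and 216 and Hes1, a Notch target, from 4.22, 1.78 and 2.44 to 20.7, 14.9 and 17.2. Tgif1, a Smad corepressor, was lower (172, 184 and 141 against 29.1, 23.1 and 23.2, log2FC -2.67 ± 0.18), as was Tob2 (1678, 1728 and 1886 against 1316, 1176 and 1475). Id1, Smad6 and Msx2 were under the minimum, with cartilage means of 0.786, 2.96 and 0.551.

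Inhibitors of BMPs rose with the targets. All 8 tested secreted BMP antagonists of 19 listed were higher (median 5.21). Those with monolayer means under 10, among them Nog, Chrdl1, Bmper, Sost and Grem1, could only be higher. Nog, encoding noggin, went from 12.1, 4.74 and 10.96 to 5218, 4693 and 4106, 505-fold higher. Chrdl1, encoding chordin-like 1, went from 0, 0.593 and 1.83 to 2024, 2400.1 and 3576. Bmper, encoding a BMP-binding protein, went from 3.62, 2.37 and 6.70 to 473, 528 and 601. Sost, encoding sclerostin, which binds Wnt receptors, went from 0 to 143, 149.6 and 163. Noggin was thus the most counted of the strongly changed antagonists. Grem1, encoding gremlin, went from 1.21, 0.593 and 0.609 to 15.3, 16.5 and 38.6, and Twsg1, encoding twisted gastrulation, from 1736, 1775 and 2179 to 6159, 6127 and 7479. Fstl1, of the follistatin family, was the most counted of the list in both groups (2864, 2932 and 3428 against 7294, 6803 and 7788, log2FC 1.25 ± 0.09).

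In the list of BMP ligands and receptors, the receptor and coreceptor genes that passed were lower. Of 32 BMP ligands and receptors, 7 were tested, with 1 higher (Bmp6), 4 lower and 2 not passed (median -1.03). Acvr2a, a type II receptor, went from 27.8, 40.3 and 38.4 to 0.766, 1.65 and 8.58. Tgfbr3, the coreceptor betaglycan, went from 476, 451 and 609 to 91.2, 107 and 159.6. Acvr1b, an activin type I receptor, went from 338, 378 and 390.4 to 162, 180.2 and 197 (log2FC -1.03 ± 0.12), and the ligand Gdf5 was given above. The groups did not overlap for Acvr2a and Tgfbr3. Bmpr1a, Bmpr2, Acvrl1 and Bmp2 have several entries and lay under the minimum, so that a fall of BMP receptors in general cannot be read here.

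Of 13 TGF-beta genes, 5 were tested, with 4 higher and 1 lower (median 2.20). Tgfbi, a TGF-beta-induced matrix protein, went from 515, 494 and 473 to 25869, 28754 and 31859.9, 58.4-fold higher. Tgfb1 went from 363, 298 and 377 to 2811, 2703 and 2322. Tgfb3 rose by 1.70 on the log2 scale. Smad3, the signal transducer of the pathway, was lower (71.2, 101 and 87.1 against 12.3, 12.4 and 22.3, log2FC -2.43 ± 0.27).

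Wnt pathway genes mostly rose, and the secreted inhibitors Wif1 and Frzb had the largest log2FCs of the list. Of 41 listed, 18 were tested, with 15 higher and 1 lower (median 4.03). The minimum fixed the direction of those with monolayer means under 10, among them Wif1, Frzb, Sfrp2, Notum, Rspo3, Fzd9 and Sost. Beside Wif1, Frzb, encoding a soluble decoy of Frizzled receptors, went from 1.21, 0.593 and 1.22 to 15955, 18754 and 21837, 18736-fold higher. Sfrp2, of the same family, went from 0 to 45.96, 23.1 and 20.6, and Notum, a Wnt-inactivating esterase, from 0 to 26.8, 38.9 and 23.2. Rspo3, a secreted enhancer of Wnt signalling, went from 0 to 1956, 2334 and 2961, at least 4016-fold higher. Enhancer and inhibitors were thus both induced from 0 or near it. Several receptor genes were higher as well, though Fzd7 did not pass. Lrp5, a Wnt coreceptor, went from 22.9, 19.6 and 13.4 to 748, 785 and 676, 39.5-fold higher. Lrp4, its sclerostin-binding relative, went from 6.64, 10.7 and 16.4 to 363, 308 and 289, and Fzd9 from 1.81, 1.78 and 1.22 to 694, 688 and 544. Ror2, a receptor of noncanonical Wnts, went from 133, 113 and 168 to 1082, 1086 and 1214. Wnt5a, a ligand of Ror2, was lower (24.7, 40.3 and 43.9 against 11.5, 14.1 and 23.2, log2FC -1.13 ± 0.32). Axin2, a Wnt target with 5 entries, was under the minimum with means of 0.399 and 0.

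Matrix genes of fibrous tissue rose together with those of cartilage. Of 50 listed, 25 were tested, with 20 higher and 3 lower (median 3.76). Col1a2, a chain of type I collagen, was the most counted transcript of the cartilage and went from 34326, 37102 and 34812 to 324049, 321102 and 365817, 9.52-fold higher (adjusted p = 3.21e-09). Col1a1 went from 9372, 9470.3 and 8557 to 132434, 112938 and 125176. Col3a1, the type III collagen of loose connective tissue, went from 3247, 3441 and 3534 to 38793, 36732 and 40549.9. Type I and III collagen were thus abundant in both groups. Col6a1, a chain of the type VI collagen around chondrocytes and fibroblasts, went from 664, 631 and 726 to 83969, 88317 and 101468, 135-fold higher. Col6a2 went from 88.7, 79.4 and 85.9 to 22534, 23987 and 21292, 267-fold higher. Col14a1, which associates with fibrils of dense tissue, went from 0 to 767, 951 and 999. Type XIV collagen was thus counted in cartilage alone.

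Cell surface and crosslinking proteins of fibroblasts followed. Thy1, a surface protein of fibroblasts, went from 1.21, 1.78 and 0 to 1196, 1177 and 1073. Lox, the enzyme that crosslinks collagen, went from 0.604, 5.34 and 2.44 to 735, 716 and 1933, with replicate 3 the highest. Ogn, encoding osteoglycin, went from 433, 407 and 450.1 to 13425, 12971 and 15399, and Dcn, encoding decorin, from 10.9, 2.96 and 6.09 to 646, 638 and 1055. Twist2, a mesenchymal transcription factor, was lower (253, 184 and 277 against 51.3, 62.01 and 57.5, log2FC -2.03 ± 0.18).

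In the tendon and ligament list, 7 of 12 genes were tested, with 6 higher and 1 lower (median 4.27, and 6.40 without cartilage replicate 1, which left 1 gene under the minimum). Fmod, Col14a1 and Mfap5 of the higher genes encode matrix proteins that other connective tissues also make. Scx, the transcription factor of tendon progenitors, was the lower gene and went from 223, 191 and 204 to 10.7, 9.92 and 9.44, 20.5-fold lower (log2FC -4.23 ± 0.18, adjusted p = 1.74e-08). Mkx, another tendon factor, went from 11.5, 11.3 and 27.4 to 113, 141 and 159.

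Matrix proteases moved both ways. Of 43 proteases and inhibitors, 16 were tested, with 9 higher and 4 lower (median 0.88), or 8 and 6 when libraries were scaled to total reads. Mmp3, encoding stromelysin 1, went from 1.21, 0.593 and 2.44 to 4896, 5072 and 4565, 3431-fold higher. Timp3, a matrix-bound inhibitor, went from 104, 123 and 104 to 20584, 12702 and 11961. Adamts5, the main aggrecanase of mouse cartilage, went from 575, 626 and 681 to 25.3, 20.7 and 18.9, 29.02-fold lower (adjusted p = 2.84e-09). Both aggrecanases fell, Adamts4 by less (182, 232 and 113 against 93.4, 66.97 and 71.2, log2FC -1.13 ± 0.25).

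Enzymes of glycosaminoglycan synthesis and sulfation had 18 of 51 genes tested, with 12 higher and 3 lower (median 1.07), or 9 and 6 under total-read scaling. Has2, a hyaluronan synthase, went from 0, 1.78 and 0 to 895, 943 and 1188. Slc26a2, the sulfate transporter on which cartilage depends, went from 66.99, 87.2 and 96.8 to 1207, 1176 and 2892. Chst3, a chondroitin sulfotransferase, went from 3.62, 3.56 and 7.31 to 39.1, 47.1 and 45.5. Cartilage replicate 3 was the highest for Has2 and Slc26a2, as for Xylt1. Hs6st1, which sulfates heparan sulfate, was lower (1226, 1220.2 and 1249 against 401, 354 and 412, log2FC -1.66 ± 0.09).

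The secretory pathway rose broadly. Of 77 genes of ER folding, collagen processing and secretion, 48 were tested, with 42 higher and 3 lower (median 1.90), or 37 and 8 when scaled to total reads. P3h2, a collagen prolyl 3-hydroxylase, went from 121, 138 and 130.3 to 6181, 6020.4 and 8072, 52.1-fold higher. Crtap, encoding the cartilage-associated protein of collagen 3-hydroxylation, went from 884, 819 and 788 to 10005, 12684 and 12563. Fkbp9, a prolyl isomerase of the ER, went from 1399, 1499 and 1511 to 22512, 25935 and 31575. All 3 act on collagen or fold proteins in the ER. P4hb, encoding protein disulfide isomerase, went from 8237, 7729 and 8765 to 42313, 45443 and 49332 (5.54-fold), and Calr, encoding calreticulin, from 7980.1, 7949.5 and 7347 to 32610.0, 35849.8 and 39914 (4.66-fold). Creb3l1, a transcription factor that drives collagen secretion, went from 459, 448 and 423 to 5454, 5078 and 5627. Ern1, the ER stress sensor IRE1, was lower (2105, 3285 and 3033 against 368, 269 and 557, log2FC -2.85 ± 0.25).

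Lysosome and autophagy genes were mostly higher under the authors' scaling. Of 61 listed, 31 were tested, with 22 higher and 4 lower (median 0.74), or 13 and 9 when scaled to total reads. Ctsf, encoding cathepsin F, had a large increase (24.1, 21.9 and 33.5 against 2192, 2463 and 2528). Sqstm1, the autophagy receptor p62, was lower (45.3, 41.5 and 32.3 against 10.7, 8.27 and 3.43).

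Growth factor response genes went down. Of 35 genes of the ERK response, 21 were tested, with 14 lower, 5 higher and 2 not passed (median -2.97). EGF and PDGF were in the medium of the monolayer group alone. Ereg (chr5:91074617-91093649), encoding the EGF receptor ligand epiregulin, went from 486, 443 and 705 to 16.9, 8.27 and 6.01, 52.5-fold lower (adjusted p = 1.63e-07). Egfr, the receptor itself, went from 425, 572 and 602 to 40.6, 27.3 and 27.5, 16.8-fold lower. Dusp4, an ERK phosphatase, went from 287, 368 and 370.3 to 6.89, 4.96 and 12.02, 42.9-fold lower. Ligand, receptor and phosphatase thus fell together. Dusp6 went from 290.3, 305 and 308 to 36.8, 33.9 and 27.5, and Spry4, a feedback inhibitor, from 384, 334 and 421 to 37.5, 42.99 and 42.9. Jun, of the AP-1 transcription factor, went from 5021, 4954 and 5035 to 165, 126 and 113, 37.1-fold lower, and Fosl1 from 421, 403 and 305 to 14.6, 12.4 and 10.3.

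Other AP-1 and EGF family genes rose. Fos went from 4.83, 2.96 and 1.22 to 199, 191 and 139.9 and Tgfa, another ligand of the EGF receptor, from 0, 0.593 and 0 to 444, 506 and 573. Fos and Jun, which form AP-1 together, thus moved in opposite directions, as did the ligands Tgfa and Ereg.

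Targets of YAP and SRF had no common direction. Of 33 such and contractile genes, 16 were tested, with 6 higher and 7 lower (median 0.09, and -0.51 when scaled to total reads). Ctgf, encoding the matricellular protein CCN2, went from 96.6, 85.4 and 113 to 2695, 2433 and 2543, 26.04-fold higher. Cyr61, encoding CCN1, went from 1317, 1290.1 and 1347 to 4018, 4122 and 3783. Ankrd1, another YAP target, went from 20.5, 18.97 and 23.1 to 0, 0.827 and 0 (log2FC -4.16 ± 0.34). Targets of the same factor thus differed in direction. Ajuba, an adaptor of cell junctions, went from 3561, 3869.8 and 3469 to 397, 263 and 342, 10.9-fold lower. Myh9, encoding a non-muscle myosin, was lower (12424, 14364 and 16684 against 5451, 4955 and 6422, log2FC -1.37 ± 0.13), and Vim, encoding vimentin, higher (18542, 17249 and 18394 against 59903, 79474 and 91009).

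In the IGF and FGF systems, 6 of 21 genes were tested, with 3 higher and 2 lower (median 2.41). All 3 of the higher genes encode IGF-binding proteins. Igfbp4 went from 5349, 5202 and 4663 to 112672, 135308 and 151888, 26.3-fold higher, and was the fourth most counted transcript of the cartilage. Igfbp5 went from 2.41, 0.593 and 0 to 3455, 3569 and 6435. Igfbp6 went from 763, 564 and 707 to 20422, 22467 and 17721. The lower genes were Fgf10, a ligand of limb bud mesenchyme (197, 232 and 273 against 35.2, 34.7 and 47.2, log2FC -2.55 ± 0.19), and Igf2r, which clears IGF2 (4882, 5769 and 7366 against 2620.4, 2522 and 3533, log2FC -1.05 ± 0.16).

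Genes of cell division fell. Of 93 mitosis genes, 22 were tested, with 19 lower, 2 higher and 1 not passed (median -2.78). Ccnb1, encoding cyclin B1, went from 1045, 1175 and 899 to 67.4, 47.1 and 72.1, 16.7-fold lower (adjusted p = 1.94e-08). Cdk1, its kinase partner, went from 1029.6, 1143 and 800.3 to 178, 154 and 109, 6.74-fold lower. Cdc20, an activator of the anaphase-promoting complex, went from 1182, 1189 and 867 to 112, 110.0 and 90.1, 10.4-fold lower. The groups did not overlap, and the cartilage values were low but not 0. Ccnb2, encoding cyclin B2, went from 291, 341 and 175 to 68.9, 54.6 and 43.8, 4.82-fold lower. Plk1, a mitotic kinase, went from 928, 1164 and 610.3 to 98.8, 50.4 and 66.1, and Stmn1, which destabilizes microtubules, from 2728, 2774 and 2019 to 155, 117 and 109.9. The higher members were Ckap4, a membrane protein of the ER (1916, 1826 and 2178 against 8800.3, 9614 and 11149.8), and Tubb5, a tubulin of all cells, which rose by 0.26 on the log2 scale and fell by 0.35 when scaled to total reads.

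Replication genes fell in part. Of 65 listed, 24 were tested, with 15 lower and 9 not passed (median -0.77), and 22 were lower when scaled to total reads. Mcm3, of the replicative helicase, went from 668, 776 and 578 to 161, 129.8 and 134, 4.76-fold lower (adjusted p = 2.42e-07). Cdt1, which licenses origins, went from 578, 570.4 and 482 to 78.1, 57.9 and 60.9. Rrm1, of ribonucleotide reductase, went from 1957, 2169 and 1739 to 394, 322 and 406. Rrm2, the other subunit of that enzyme, did not pass (294, 354 and 204 against 267, 252 and 262). Pcna, the replication clamp, was lower (1147, 1186 and 1052 against 704, 630.0 and 634, log2FC -0.78 ± 0.09). Mki67 and Top2a, proliferation markers with several entries, cannot be read in this table.

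The promoters of 4 of these genes are shown because they hold the letters that cell cycle factors bind. The cell cycle homology region (CHR, TTTGAA) is bound by the MuvB complex and the E2F site (TTTCGCGC or TTTGGCGC) by E2F factors. In RefSeq promoters of GRCm38.p6, from 250 bases before to 50 after the start and on both strands, the CHR letters were in 17.9% of all 32851 promoters. They were in 49 of the 82 promoters of the whole mitosis list (59.8%) and in 11 of the 16 of its lower members, against 11.4% of the 4000 promoters of all tested genes. Among all called genes, they were in 16.00% of 525 promoters of genes called lower and in 10.99% of 828 of genes called higher. The E2F letters were in 0.813% of all promoters, in 2.67% of those of genes called lower, in 0.845% of those of genes called higher and in 16 of the 61 of the whole replication list (26.2%). They were in 1.65% of those of all tested genes, in 2 of 11 of the lower replication genes and in 1 of 6 of the tested ones that were not lower. The CArG box, bound by SRF, was in 1.63% of all promoters, 1.30% of those of tested genes, 1.90% of those called lower and 1.09% of those called higher.

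Capitals mark the CHR and E2F letters in the 4 promoters, written 5′ to 3′ along the gene. Cdk1 holds an E2F match that begins 131 bases before the start and 2 CHR matches, at 71 and 15 bases before it. Cdc20 holds a CHR match at 18 bases before the start. Ccnb2 holds CHR matches at 167 bases before the start and at base 5 after it. Mcm3 holds an E2F match at base 39 after the start. No 2 matches overlap, and a match is a run of letters whose binding was not tested.
Cdk1 (chr10:69352863-69353162, minus strand): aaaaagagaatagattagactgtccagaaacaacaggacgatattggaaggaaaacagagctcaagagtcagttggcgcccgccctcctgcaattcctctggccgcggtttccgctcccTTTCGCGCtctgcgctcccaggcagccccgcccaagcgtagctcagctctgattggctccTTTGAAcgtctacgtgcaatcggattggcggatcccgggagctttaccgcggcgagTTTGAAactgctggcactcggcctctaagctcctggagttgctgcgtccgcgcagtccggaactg
Cdc20 (chr4:118437294-118437593, minus strand): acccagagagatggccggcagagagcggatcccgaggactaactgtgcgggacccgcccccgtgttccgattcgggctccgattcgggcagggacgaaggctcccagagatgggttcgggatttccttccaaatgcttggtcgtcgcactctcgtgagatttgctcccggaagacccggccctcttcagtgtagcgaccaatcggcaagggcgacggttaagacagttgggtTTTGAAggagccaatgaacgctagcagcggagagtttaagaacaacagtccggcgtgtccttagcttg
Ccnb2 (chr9:70421505-70421804, minus strand): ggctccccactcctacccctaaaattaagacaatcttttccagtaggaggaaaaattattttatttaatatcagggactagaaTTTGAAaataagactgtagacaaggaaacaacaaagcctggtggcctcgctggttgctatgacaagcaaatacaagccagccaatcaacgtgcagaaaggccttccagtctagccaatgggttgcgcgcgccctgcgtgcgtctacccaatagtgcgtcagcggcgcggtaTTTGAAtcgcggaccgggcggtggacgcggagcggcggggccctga
Mcm3 (chr1:20820263-20820562, minus strand): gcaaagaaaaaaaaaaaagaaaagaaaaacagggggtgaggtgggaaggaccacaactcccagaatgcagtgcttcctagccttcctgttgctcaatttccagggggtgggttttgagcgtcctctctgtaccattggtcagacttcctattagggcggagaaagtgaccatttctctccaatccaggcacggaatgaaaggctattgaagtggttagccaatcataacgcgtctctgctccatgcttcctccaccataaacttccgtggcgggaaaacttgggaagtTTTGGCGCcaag

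Inhibitors of the cell cycle did not rise as a group. Of 18 inhibitors and antiproliferative genes, 10 were tested, with 6 lower and 2 higher (median -0.65). Gadd45a, a stress-induced gene, went from 5941, 5839 and 4997 to 787, 585 and 385, 9.54-fold lower. Its paralogs were higher, Gadd45g from 265, 228 and 180.3 to 716, 786 and 585 and Gadd45b from 827, 681 and 620.0 to 1880.5, 1915 and 1518. Cdkn1b, encoding the CDK inhibitor p27, did not pass (1083, 1212 and 962 against 1067, 906 and 1010.2). Cdkn1a, encoding p21, has 2 entries and was under the minimum.

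Metabolic genes moved in both directions. Of 41 glycolysis and hypoxia genes, 16 were tested, with 7 higher and 6 lower and a median of 0.12 (-0.45 when scaled to total reads). Epas1, encoding the hypoxia factor HIF-2alpha, went from 11.5, 14.2 and 11.6 to 643, 576 and 779, 53.6-fold higher. Bnip3, a hypoxia-induced gene of mitophagy, went from 565, 623 and 601 to 4433, 3849 and 2977. Tpi1, a glycolytic enzyme, went from 2966, 2695 and 2943 to 10102, 10229 and 9283. Other hypoxia targets were lower, among them Ndrg1 (7891, 8769.5 and 6024 against 2568, 2014 and 1760.3) and Adm, encoding adrenomedullin (137, 104 and 136 against 34.5, 25.6 and 26.6).

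In cholesterol and fatty acid synthesis, 20 of 36 genes were tested, with 12 higher and 2 lower (median 0.64), or 8 and 7 and a median of -0.11 when scaled to total reads. The fatty acid desaturases rose under both scalings, Fads2 from 643, 607 and 664 to 5159.6, 5715 and 8019 and Scd1 from 5616, 5934 and 6609.7 to 16197, 15881 and 22026. In amino acid supply and the ATF4 response, 25 of 45 genes were tested, with 11 lower and 6 higher (median -0.24). Atf3, a stress factor, went from 2409, 2256 and 2182 to 279.6, 212 and 142. Cth, of cysteine synthesis, went from 319.9, 427 and 176 to 36.8, 38.03 and 40.3, and Pycr1, of proline synthesis, was higher (84.5, 95.5 and 60.9 against 373, 281 and 269).

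Transcripts of the mitochondrial genome rose, while nuclear genes of the same complexes did not rise as a group. All 13 tested mitochondrial transcripts were higher, with log2FCs of 1.35 to 3.04. COX1, the catalytic subunit of cytochrome c oxidase, went from 28732, 32224 and 38173 to 126291, 165651 and 91738, with replicate 3 the lowest of the cartilage libraries. Of 95 nuclear respiratory chain genes, 57 were tested, with 27 higher, 16 lower and a median of 0.22, which became -0.38, with 11 higher and 30 lower, when scaled to total reads. Atp5b, the catalytic subunit of ATP synthase, was lower (23495, 22246 and 22459 against 8440.3, 9017 and 8841), and Uqcrh, of complex III, higher (766, 618 and 671 against 1938, 2112 and 2075).

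Translation genes stayed near the median. Of 86 cytosolic ribosomal protein genes, 55 were tested, with 24 higher, 8 lower and a median of 0.15, which became -0.46, with 5 higher and 38 lower, when scaled to total reads. Eef1a1, an elongation factor and the most counted transcript of the monolayer, went from 120109, 125179 and 116752 to 174875, 183155 and 193622. Its log2FC was 0.61 ± 0.11 and about 0 when scaled to total reads.

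Complement and acute phase genes were higher. The list of chemokines, complement and NF-kB held 49 genes, of which 20 were tested, with 13 higher and 5 lower (median 1.56). C3, the central complement component, went from 2.41, 4.74 and 1.83 to 1316, 1260.0 and 1973, 506-fold higher. C1ra, a protease of the classical pathway, went from 27.2, 20.8 and 34.7 to 4415, 4755 and 4242. The groups did not overlap for either gene. Lcn2, encoding lipocalin 2, went from 6.64, 1.19 and 3.05 to 1899, 1742 and 1629, and Icam1, an adhesion molecule, from 3.62, 3.56 and 3.65 to 773, 749 and 635. The chemokine gene Ccl2 was lower (112, 137 and 68.8 against 25.3, 14.1 and 12.9).

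Among 38 interferon-stimulated genes, 9 were tested, with 7 higher and 2 not passed (median 2.19). Psmb8, an immunoproteasome subunit, went from 1.21, 0.593 and 1.83 to 69.7, 109 and 90.1, and B2m, encoding beta-2-microglobulin, from 4987, 4420.0 and 4913 to 34084, 38107 and 40689. In the Notch pathway, 7 of 19 genes were tested, with 4 higher and 2 lower (median 2.32). Notch1 went from 19.3, 13.04 and 24.97 to 332, 341 and 568, and Lfng, which modifies the receptor, from 99.6, 83.6 and 88.9 to 892, 1061 and 1017. The lower genes were Jag1, a ligand (48.3, 80.04 and 65.2 against 1.53, 1.65 and 8.58), and Rbpj, the DNA-binding factor of the pathway, which has 9 entries (209, 385 and 267 against 6.89, 0 and 3.43).

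Markers of osteoblasts and adipocytes were in part higher. All 5 tested osteoblast markers of 15 were higher (Bglap, Bglap2, Ibsp, Col1a1 and Runx2; median 8.37), and the summed list was 8568 to 9479 in monolayer and 114951 to 135076 in cartilage, mostly Col1a1. All of these markers but Col1a1 had monolayer values under 10, so that the minimum fixed their direction. Sp7 and Dmp1, which mark osteoblasts and osteocytes, had cartilage means of 2.97 and 0. All 5 tested adipocyte markers of 22 were higher (Lpl, Fabp4, Cidea, Cebpd and Dgat2; median 5.54), with sums of 284 to 406 and 1369.8 to 1460.0. Fabp4, a fatty acid carrier, went from 0 to 57.4, 62.01 and 60.9, and its direction was fixed likewise. Pparg, Cebpa and Plin1, with 3 or more entries each, were at 0 in all 6 libraries, and Adipoq, with 1 entry, had a cartilage mean of 1.36.

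Of 19 glial and neuronal markers, 5 were tested, with 2 higher and 2 lower (median 0.43, and -0.17 when scaled to total reads) and sums of 3463 to 4121 and 6457 to 7227. S100b and Gfap, which went from 0 to 581, 780.5 and 669, were higher and Uchl1 and Stmn2 lower, while Sox10 was at 0. Of 16 smooth and skeletal muscle markers, 2 were tested and higher, Des (0, 0 and 1.22 against 75.8, 60.4 and 69.5) and Lmod1, with sums of 12.8 to 24.7 and 122 to 146 and with Myh11, Myod1 and Myog at 0.

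None of 12 endothelial markers reached the minimum (sums of 0 to 1.78 and 0.766 to 4.29), and Pecam1, Cdh5 and Kdr were at 0. Of 13 blood and macrophage markers, 2 were tested (sums of 114 to 171 and 189 to 236). Lyz2, encoding lysozyme, went from 0 to 65.1, 76.9 and 103 and Cd14 did not pass, while Ptprc, Adgre1 and Csf1r were at 0. Of 12 keratinocyte and epithelial markers, Trp63 (0 against 22.2, 27.3 and 14.6) and Sfn were tested and higher (sums of 9.49 to 10.96 and 27.5 to 51.3), while Krt14, Krt8, Krt18 and Cdh1 were at 0. Of 11 genes of RNA quality and stress, 8 were tested, with 5 higher, Malat1 and the near-identical Hspa1a and Hspa1b among them, and 3 lower, Atf3, Gadd45a and Dnajb1 (median 0.98, sums of 9909.6 to 11337 and 7358 to 12199.6). Of the markers named as at 0, Sox10, Myod1, Myog, Krt8, Krt18 and Cdh1 have 1 entry in the table and the others 2 or more. The part of these markers in the other results was not tested.

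**Figure D4:**
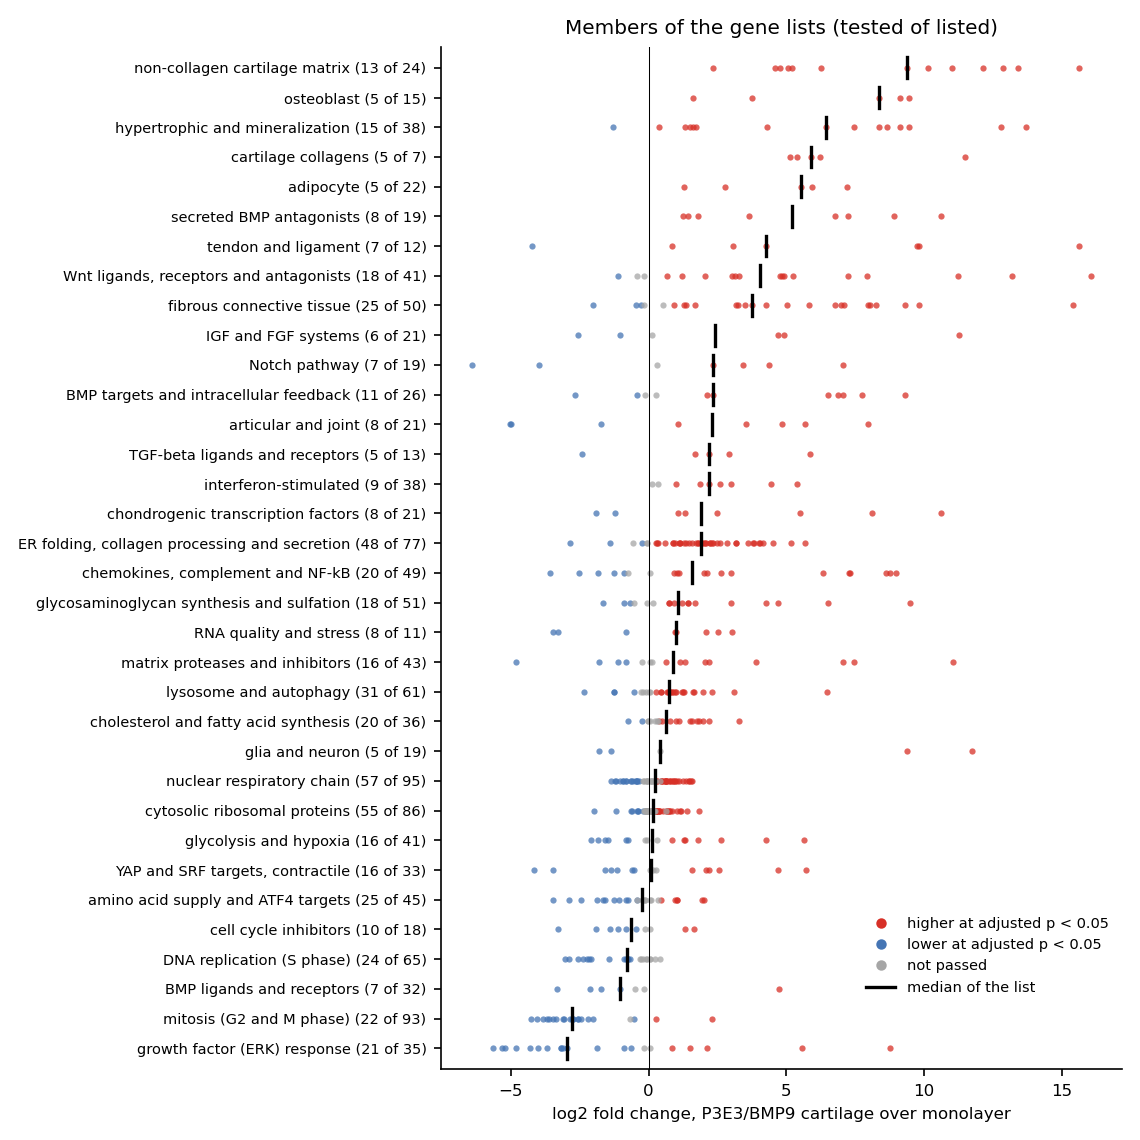
For each gene list with at least 5 tested members, points are the tested members at their log2 fold change from P3E3 monolayer to P3E3/BMP9 cartilage, red if higher and blue if lower at an adjusted p under 0.05 and grey if not passed, and the black bar is the list's median. Numbers give tested of listed. Non-collagen cartilage matrix has the highest median (9.37) and the growth factor response the lowest (-2.97).

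The largest decreases fell on genes of many functions. Chrnd (chr1:87190597-87200070), encoding the delta subunit of the muscle acetylcholine receptor, went from 562, 557 and 661 to 0 in all 3 cartilage libraries, at least 726-fold lower (adjusted p = 3.17e-10). It was 1 of 5 transcripts called lower that were at 0 in all cartilage libraries. Mt2, encoding the metal-binding protein metallothionein 2, went from 4889, 5037 and 3112 to 30.6, 28.9 and 0.858, with replicate 3 the lowest in both groups. Blnk, an adaptor of B cell receptor signalling, went from 589.6, 605 and 545 to 1.53, 0 and 1.72 (log2FC -8.25 ± 0.36). Gdpd1, a lysophospholipase D, went from 885, 923 and 797 to 6.13, 4.13 and 6.87, 152-fold lower. Cartilage values of these genes were thus 0 or a few counts, except for Mt2 in replicates 1 and 2.

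Further decreases of this size include cell junction and signalling proteins. Pkp2, encoding the desmosome protein plakophilin 2, went from 296, 279.8 and 289 to 3.06, 0.827 and 0.858. Pstpip2, an adaptor of the actin cytoskeleton, went from 174, 186 and 227 to 0, 2.48 and 0.858. Rragd, a GTPase of the mTORC1 pathway, went from 254, 245 and 336 to 11.5, 1.65 and 4.29, 47.9-fold lower, and Lancl3 from 126, 139 and 266 to 1.53, 0 and 0.858. The others among the 15 were Ereg, Ptchd1, Tmem74, 1810011O10Rik, Gm6634, Prrg4 and Fam110c, with monolayer means of 113 to 751 and cartilage means of 0.817 to 11.3.

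The change from monolayer to cartilage was also compared with that of P3D8 by limma in 1 model over the 12 libraries. The difference between the 2 changes passed an adjusted p of 0.05 for 2414 of the 5183 transcripts (46.6%), 1465 with a more positive change in P3E3 and 949 with a more negative one. For 661 (12.8%) it was also at least 1.5 in size. Of the 1759 transcripts called in P3E3, 453 differed by that much, and 26 had a change of the opposite sign in P3D8 at an adjusted p under 0.05. With the groups set by the cell line entry in place of the title, limma passed 0 transcripts, with 50 at an unadjusted p under 0.05.

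Mgp, encoding matrix Gla protein, an inhibitor of mineralization, differed most. In P3E3 it went from 6.41 ± 5.44 to 3969 ± 1056 (SD, n = 3). In P3D8 it was at 1815 ± 336 in monolayer and 1753 ± 111 in cartilage. The difference between the changes was 9.40 ± 0.62 on the log2 scale (adjusted p = 7.41e-08). Itm2a, a membrane protein of early chondrogenic cells, rose by 10.14 in P3E3 and by 2.91 in P3D8, where the monolayer mean was already 291 ± 38.2 against 0.803 ± 0.35. Timp3 rose by 7.05 and 1.72, with monolayer means of 110.0 ± 11.00 in P3E3 and 6799.9 ± 685 in P3D8. For these 3 genes the lines differed in monolayer by more than in cartilage.

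Further genes rose by more in P3E3. Col9a2 rose by 11.49 against 6.73 and Sema3d, a secreted semaphorin, by 8.77 against 3.89. Plagl1 rose by 6.34 against 1.33 and Napsa, an aspartic protease, by 7.65 against 2.62. For genes at 0 or near it in both monolayers, such as Col9a2, Plagl1 and Napsa, and Cilp, Panx3, Clec3a, Chad, Epyc and Ihh given below, the difference compares the cartilage levels. Sstr2, a somatostatin receptor, did not pass in P3E3 (71.8, 81.8 and 73.7 against 78.9, 70.3 and 67.8) and went from 291 ± 51.3 to 6.50 ± 2.07 in P3D8.

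In the other direction, Cilp, encoding the cartilage intermediate layer protein of articular cartilage, rose less in P3E3. It went from 0.602 ± 0.00822 to 123 ± 9.52 in P3E3 and from 0.424 ± 0.368 to 1845 ± 60.1 in P3D8, a difference of -4.10 ± 0.30 (adjusted p = 2.30e-07). Svep1, a large matrix protein, rose by 2.49 against 6.32. Fgf10 had a log2FC of -2.55 in P3E3 and 0.64 in P3D8 (difference -3.19 ± 0.21, adjusted p = 7.29e-08), and Setbp1 of -1.10 and 2.72. Both thus changed in opposite directions. Ptchd1, Gm6634 and Rbpj had negative log2FCs in both lines, further from 0 in P3E3. Chrnd was at 0 in every cartilage library of both lines, so that its difference rests on the monolayer means alone (594 ± 58.9 in P3E3 and 19.2 ± 7.53 in P3D8).

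**Figure D5:**
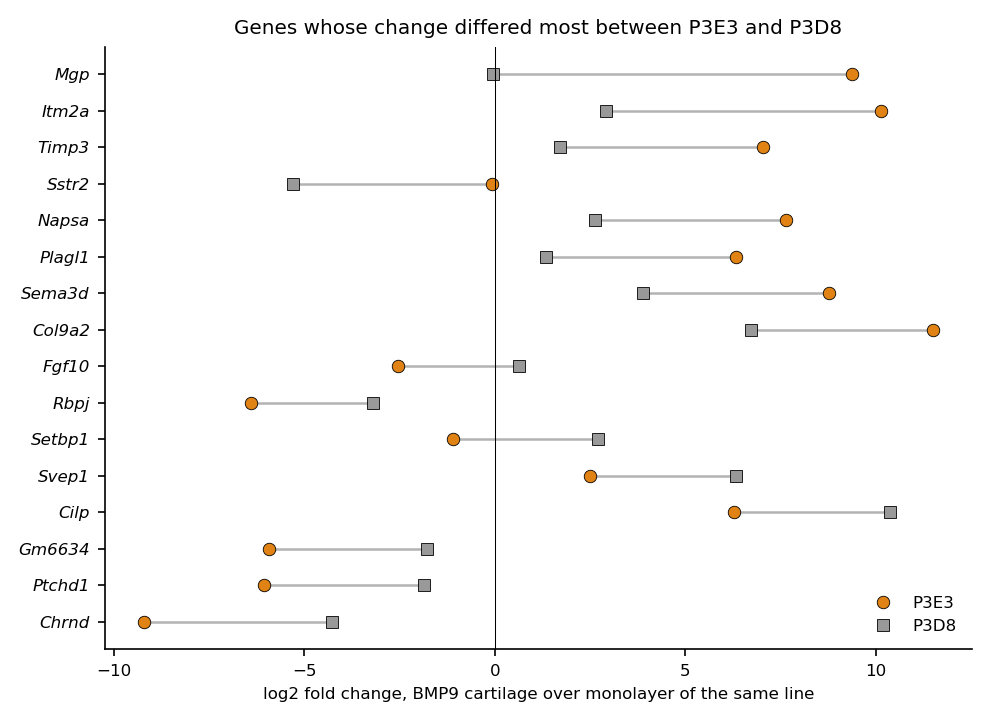
The 16 genes with the largest differences between the lines are shown with their log2 fold change from monolayer to BMP9 cartilage in P3E3 (orange circles) and P3D8 (grey squares), ordered by the difference. Mgp rises by 9.37 in P3E3 and lies at -0.04 in P3D8, and Fgf10 and Setbp1 change in opposite directions.

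Among the BMP targets, the changes of Id2 and Id3 differed between the lines. Id2 went from 29.3 ± 3.08 to 3573 ± 21.1 in P3E3 and from 299 ± 13.2 to 2323 ± 211 in P3D8 (difference 3.94 ± 0.13, adjusted p = 1.41e-10). Id3 went from 22.6 ± 8.51 to 4873 ± 332 and from 233 ± 36.9 to 4583 ± 204 (difference 3.46 ± 0.30). For both genes the lines differed in monolayer by more than in cartilage. Bambi and Nog showed differences of -0.25 ± 0.22 and 0.01 ± 0.66, which did not pass.

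Cartilage genes differed in part. Panx3 (3.08 ± 0.18), Clec3a (3.14 ± 0.44), Chad (3.77 ± 0.48), Epyc (2.37 ± 0.25), Mmp13 (4.36 ± 0.56) and Ihh (3.43 ± 1.00) rose by more in P3E3, each difference passing. Col10a1 (0.18 ± 0.94, adjusted p = 0.889), Wif1 (0.93 ± 0.39), Fmod (-0.69 ± 0.59) and Sox9 (0.18 ± 0.11) had differences that did not pass. Col10a1 was counted at 6818 ± 3034 in P3D8 cartilage and at 14451 ± 13078 in P3E3 cartilage, so that its spread within each line is large. Eef1a1 had log2FCs of 0.61 in P3E3 and -1.23 in P3D8 (difference 1.84 ± 0.13, adjusted p = 1.84e-07).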

How the data were processed

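RNA of 12 cultures was sequenced by the authors as 100-base paired-end reads on a BGISEQ-500 and aligned to the mouse genome (mm10) with HISAT2. Reads were counted per RefSeq transcript with HTSeq. They were normalized with DESeq2 together with public articular and growth plate cartilage samples of other studies, which are not analysed here. Versions, the annotation release and the strand setting are not given in the sources used here. The deposited values are the resulting signal, normalized counts equal to reads divided by 1 size factor per library. Divided by the step of its library, each value (100% of them) came within 0.01 of a whole number, so whole reads were recovered. A second deposited table holds the authors' own comparison of P3D8 and P3E3 cartilage, with fold changes, adjusted p values and group means, and was not used.

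The 6 P3E3 libraries had to average 10 or more for a transcript to be tested, which was done with limma 3.58.1 (R 4.3.3, trend) on log2(normalized count + 1), with the study's thresholds (absolute log2FC of at least 1.5, Benjamini-Hochberg adjusted p under 0.05). edgeR 4.0.16 and DESeq2 1.42.0 on recovered reads were alternatives. The limma step was checked on simulated data. A gene with several entries is represented by its most counted one. Members and lists were chosen with earlier results of these data known. Genes named are list members, the 15 largest increases and decreases with a mean of at least 50, the 10 most counted of each group, the 10 widest cartilage ranges of genes called higher and the 8 largest differences between lines in each direction. Alternatives were other pseudocounts, minimums, scalings, tests, groupings, gene sums, single-entry genes, a replicate block and leaving out libraries. P-values measure the spread between cultures of 1 clone. Some list members are counted but not reported here by name.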

Additional observations from a re-analysis of the deposited data

Results flagged for a closer look

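The change from monolayer to cartilage differed between P3E3 and P3D8 for 2414 transcripts, tested as the interaction of line and culture by limma over the 12 libraries with the adjusted p under 0.05. For the genes named in the text whose difference was also at least 1.5, the change in P3E3 minus that in P3D8 is given below on the log2 scale, so that a positive value is a larger rise or a smaller fall in P3E3. Where both lines were at 0 or near it in 1 culture (cartilage for Chrnd, monolayer for many matrix genes), the difference compares the levels in the other culture.

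Matrix genes were mostly on the positive side. The cartilage and pericellular matrix genes were Mgp (9.40), Col9a2 (4.76), Chad (3.77), Clec3a (3.14), Epyc (2.37), Susd5 (1.54), Col11a1 (2.21), Col6a1 (2.60) and Col6a2 (3.27). Fibrous matrix genes were Dcn (4.58), Col14a1 (3.61), Tgfbi (3.31) and Mfap5 (2.20), and Thy1 was at 1.51 and Vim at 1.80. A positive difference does not by itself mean a higher level in P3E3 cartilage. Vim had monolayer means of 18062 in P3E3 and 58383 in P3D8, and cartilage means of 76795 and 69165. For Col6a1 these were 674 and 3691, and 91251 and 81755. The study listed Dcn as higher in P3D8 cartilage. On the negative side were Cilp (-4.10) and Svep1 (-3.83). Of the proteases, inhibitors and glycosaminoglycan enzymes, Timp3 (5.33), Mmp13 (4.36), Mmp3 (3.35), Xylt1 (3.06), Chst3 (1.59), Anpep (3.05) and Napsa (5.03) were positive and Adamts5 (-1.96) negative.

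Hypertrophy and signalling genes went both ways. Positive differences were found for Ihh (3.43), Phex (3.28), Panx3 (3.08), Pthlh (2.18), Bmp6 (2.29), Id2 (3.94), Id3 (3.46), Sost (2.33), Frzb (1.64), Igfbp6 (2.64), Sox8 (2.88), Sema3d (4.88), Sstr2 (5.24), Itm2a (7.23) and Plagl1 (5.01). Negative differences were found for Gdf5 (-1.63), Acvr2a (-2.76), Tgfbr3 (-1.85), Smad3 (-2.14), Sfrp2 (-1.63), Wnt5a (-1.59), Fgf10 (-3.19), Dusp4 (-2.55), Jun (-1.80), Gadd45g (-1.85), Ajuba (-1.56), Rragd (-2.99), Rbpj (-3.20), Adm (-2.53) and Lcn2 (-1.55). A negative difference does not by itself mean a lower level in P3E3 cartilage. The study listed Gdf5 as higher in P3E3 cartilage than in P3D8 cartilage. Of the transcription factors, Prrx1 (-1.57), Trps1 (-2.34), Scx (-2.86), Nkx3-2 (-1.52), Setbp1 (-3.82) and Trp63 (-2.13) were negative as well. Sox8 and Plagl1, factors given above, were positive.

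The remaining positive differences were those of S100b (1.82), Gfap (2.25), Uchl1 (1.54), Fam180a (2.08), Lyz2 (1.68), Cidea (2.17), Fads2 (1.94), Scd1 (2.08), Uqcrh (1.55), Eef1a1 (1.84) and Eef2 (1.73). The remaining negative ones were those of Chrnd (-4.93), Ptchd1 (-4.21), Gm6634 (-4.16), Pkp2 (-2.58), Pstpip2 (-2.23), Prrg4 (-2.18), Lancl3 (-1.56) and Lmod1 (-1.64), most of which belong to the largest decreases of P3E3.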

How the results depend on the processing

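The calls (1104 higher, 655 lower and 2414 differences between lines) depended on the minimum, the scaling and the grouping. With a mean of at least 1, 2267 were higher and 1034 lower, with any value above 0, 2262 and 1029, and with a mean of at least 50, 674 and 431. Scaling to total reads gave 764 higher and 1321 lower, and genes with 1 entry 769 and 390. With groups by the cell line entry, limma gave 1041 higher, 568 lower and 0 differences, with 50 at an unadjusted p under 0.05, and edgeR and DESeq2 were not run with that grouping. All other counts of calls were within 1.5 times the main ones. Leaving out 1 library gave 1022 to 1171 higher, 623 to 724 lower and 2162 to 2450 differences. edgeR gave 1123, 668 and 2260 and DESeq2 1122, 670 and 2102.

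Replicate numbers pair no cultures by the labels. Deviations from the group means of same-numbered libraries correlated at 0.084, -0.119 and 0.148, and cartilage replicate 2 correlated best with monolayer replicate 1. The replicate block gave 1104 higher, 655 lower and 2280 differences.

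Of 196 genes in the text with an absolute log2FC of at least 1.5, none changed sign in any alternative, and 10 of their 4216 values under the alternatives did not pass the adjusted p. Smaller log2FCs that changed sign were those of Eef1a1 (-0.0011 under total reads), Eef2 (-0.44 under total reads and -0.48 with groups by the cell line entry), Tubb5 (-0.35 under total reads and -0.11 with groups by the cell line entry), Setbp1 (0.21) and Cdkn1b (0.076) with that grouping, Sstr2 (0.016 for gene sums), Rrm2 (-0.31 to 0.087 when leaving out 1 library) and Cd14 (-0.30 to 0.0084 likewise). Among medians of lists with at least 5 tested genes, leaving out the 2 libraries with a conflicting entry turned those of YAP and SRF targets (-0.05) and glia and neuron (-0.25), and moved that of amino acid supply to -0.54. Without cartilage replicate 1 and without replicate 3, the median of glycolysis and hypoxia was 0.07 and 0.07, and that of glia and neuron 0.25 and 0.66. Why these values moved was not tested. Counting depth limits genes near the minimum of 10, and several entries per symbol limit many known markers.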

Other observations

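Beyond the lists, the most counted transcripts describe the bulk of each culture. Serpinf1, encoding the antiangiogenic factor PEDF, was among the 10 most counted in cartilage and went from 14672, 15951 and 9728 to 123281, 136963 and 123383. In monolayer, Eef2, an elongation factor, was counted at 53434, 56725 and 46932, and in cartilage at 56641, 57064 and 61833, which did not pass. Rplp0 and Rpl4, ribosomal proteins, did not pass either (49107, 47602 and 38815 against 39010.5, 45110.3 and 43297 for Rplp0 and 31094, 30462 and 29202 against 28384, 30279.9 and 29422 for Rpl4). Ftl1, encoding ferritin light chain, went from 51894, 45178 and 36333 to 17238, 17919 and 16171 and Hspa9, a mitochondrial chaperone, from 29629, 30054 and 31518 to 11022, 10331 and 11161 (log2FC -1.49 ± 0.08).

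Some regulators with smaller counts also had large changes. Dlx3, a homeobox factor of hypertrophic and bone cells, went from 0.604, 2.37 and 3.05 to 959.8, 1118 and 1331. Phex, an endopeptidase of mineralizing cells, went from 7.85, 7.11 and 1.83 to 16.9, 19.02 and 19.7 (log2FC 1.73 ± 0.42). Fzd4 and Fzd8, Frizzled receptors, went from 64.6, 79.4 and 81.01 to 646, 547 and 829 and from 87.5, 86.6 and 88.9 to 844, 854 and 890.0, while Fzd7 did not pass (1091, 1117 and 1291 against 1114, 943 and 1089).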
